A study of Mus musculus with 7 samples.

Results

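The genes described here encode 36 proteins of ribosome biogenesis and the nucleolus, chosen by symbol from the 27998 genes measured in every library. Each of the 36 symbols matched a row in all 7 libraries. They were read as counts of unique molecular identifiers (UMIs, tags that mark single captured RNA molecules) in a droplet single-cell RNA study of mouse skeletal muscle. Primary myoblasts (1 library) are the culture arm: muscle satellite cells of the hindlimbs of wild-type mice 3 months old, kept in culture through 4 to 5 passages on collagen-coated plates, in Ham's F10 medium with 10% horse serum and bFGF at 2.5 ng/µl. Injured muscle stem cells (MuSCs, another name for satellite cells; 2 libraries) were sorted from TE-EDL muscles 60 h after injury with 2 µM notexin, a venom phospholipase that destroys myofibres. Homeostatic MuSCs (2 libraries) were sorted as well, with no injury given in their labels. Total muscle (2 libraries) held live cells of dissociated hindlimb muscle of wild-type mice 3 months old. All mice are labelled with the strain C56BL/6J, and the labels of the sorted groups give no age. No label says whether the libraries of a group came from separate animals. The p-values of comparisons between groups measure the spread between libraries, which may be technical. In splits within a library and in comparisons of cell types, the fit removes the differences between libraries. Those p-values rest on counting error and on how far the differences between classes vary from library to library, which is not a spread between animals. Each split within a library was fitted to 4 summed counts per gene, so the estimate of that spread leans on other genes.

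Ribosomes are built in the nucleolus, where RNA polymerase I transcribes the ribosomal RNA (rRNA) precursor. Small nucleolar ribonucleoproteins (snoRNPs) of the box C/D and box H/ACA kinds modify and help to cleave that precursor, and separate sets of assembly factors turn it into the small and the large ribosomal subunit. MuSCs rest out of the cell cycle in uninjured muscle and enter it after injury, and growth in cell size with new ribosome production is a known part of that exit from quiescence. The 36 genes were grouped by role into 3 of the box C/D snoRNP, 4 of the box H/ACA snoRNP, 5 of polymerase I and its partners, 5 abundant nucleolar proteins, 10 of the small-subunit (40S) pathway and 9 of the large-subunit (60S) pathway.

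Myogenic cells were gated in every library as cells with UMIs of at least 2 of 8 myogenic markers (Pax7, Myf5, Des, Cdh15, Chodl, Msc, Fgfr4, Myog) and of more of them than of any other type's markers. Myod1 was kept out of the gate. This gave 4072 primary myoblasts, 763 and 838 injured cells, 991 and 805 homeostatic cells and 59 and 83 cells of total muscle, which were summed per library. These sums held 106620209 UMIs in primary myoblasts, 6013640 and 3093105 in injured cells, 2697316 and 2321016 in homeostatic cells and 218406 and 302469 in total muscle. All 36 genes were detected in the myogenic cells of all 7 libraries, and all passed the filter on low counts in every comparison below. The 2 injured libraries shared 253 cell barcodes, against at most 16 for any other pair of libraries, and counts of called members without barcodes shared within a group are in the closing section. Markers of 8 other cell types (61 genes, from Pdgfra to Mbp) summed to a level of 1239 CPM (counts per 1e+06 UMIs) in the myogenic sum of primary myoblasts, 137 and 191 CPM in injured cells, 387 and 388 CPM in homeostatic cells and 664 and 674 CPM in total muscle. Between 23 and 31 of these 61 genes were at 0 in each of the 7 sums. Levels are given as CPM of all UMIs of the gated cells, and fold changes come from edgeR's quasi-likelihood fit over all genes, whose TMM scaling differs from plain CPM. A gene was called where its Benjamini-Hochberg adjusted p from that test was under 0.05, and ± after a fold change is its standard error.

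The summed level of the 36 genes was 7404 CPM in primary myoblasts, 7558 and 6862 CPM in injured cells, 8197 and 10684 CPM in homeostatic cells and 10705 and 11221 CPM in myogenic cells of total muscle. The injured and homeostatic libraries did not overlap, and the 2 homeostatic libraries lay further apart than the 2 injured ones. Without Npm1 and Ncl the sums were 4100 CPM in primary myoblasts, 3951 and 3774 CPM in injured cells, 5919 and 7502 CPM in homeostatic cells and 7056 and 7680 CPM in total muscle. Injured and homeostatic libraries lay further apart without these 2 genes.

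**Figure D1:**
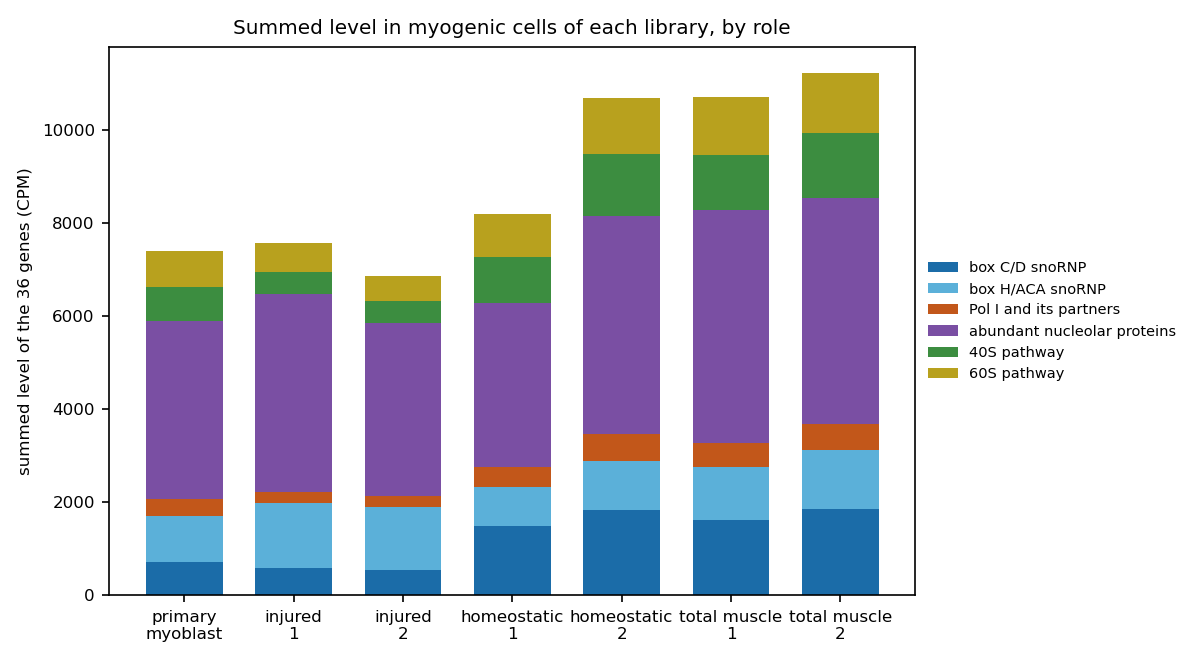
Summed level (CPM) of the 36 genes in the gated myogenic cells of each library, stacked by role. The bars reach 7404 CPM in primary myoblasts, 7558 and 6862 CPM in injured cells, 8197 and 10684 CPM in homeostatic cells and 10705 and 11221 CPM in total muscle, and the box C/D, 40S and 60S pathway parts are smaller in the injured bars than in the homeostatic ones.

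Injured cells were set against homeostatic cells to ask how the transcripts of ribosome biogenesis stand 60 h after injury. Of the 36 genes, 20 fell and 6 rose in injured cells and 10 were not called. Across all 9607 genes tested, 36.4% were called lower and 37% higher, so most genes moved and calls alone say little about a single member. The median log2 fold change of the 36 genes was -0.74, against 0.01 over all genes tested. Without TMM scaling the medians were -0.99 and -0.24, with 24 members lower and 4 higher, and the members lay 0.75 below the median of all genes under both scalings. In injured cells 26 members were below and 6 above the range of the homeostatic libraries, with 4 (Knop1, Utp20, Rrp12 and Pno1) overlapping. Over all genes tested, 48.6% lay below and 38.7% above in the same sense. With all cells that passed the cell filters and no gate, the members' median was -0.61, against 0.03 over all genes.

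All 3 box C/D genes fell. Fibrillarin (Fbl), the methyltransferase of this snoRNP, had 184 and 152 CPM in injured cells, against 374 and 426 CPM in homeostatic cells (log2 fold change -0.999 ± 0.158, adjusted p = 6.6e-05). Its scaffold proteins fell too, with Nop56 at 167 and 158 CPM in injured cells, against 400 and 517 CPM in homeostatic cells (-1.24 ± 0.16). Nop58 had 237 and 237 CPM in injured cells, against 716 and 876 CPM in homeostatic cells (-1.50 ± 0.15). Injured libraries lay below homeostatic ones for each of the 3 genes. All 3 have stretches near a 3' end that are near-identical to other annotated genes, so that part of their reads could have been split or lost in counting. For Nop58 the 10 genes matched include Glrx2 and Kif18a, so its matches are not all copies of the gene.

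The box H/ACA genes moved otherwise, with 2 rising and none falling. Nop10, a small core subunit, had 617 and 586 CPM in injured cells, against 290 and 300 CPM in homeostatic cells (1.28 ± 0.14, adjusted p = 2.5e-06). Nhp2, another core subunit, had 541 and 556 CPM in injured cells, against 304 and 416 CPM in homeostatic cells (0.86 ± 0.16). Dyskerin (Dkc1), the pseudouridine synthase of the complex, had 77.0 and 73.7 CPM in injured cells, against 84.9 and 125 CPM in homeostatic cells, and was not called (-0.22 ± 0.19, adjusted p = 0.29). Gar1, the remaining core protein, was not called either (-0.13 ± 0.17).

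Of the 5 genes of polymerase I and its partners 4 fell and 1 rose. Polr1a, the largest subunit, had 14.6 and 15.2 CPM in injured cells, against 33.0 and 43.1 CPM in homeostatic cells (-1.10 ± 0.23). Polr1b, the next largest, had 8.15 and 10.0 CPM in injured cells, against 22.6 and 42.7 CPM in homeostatic cells (-1.61 ± 0.31), and its 3' end matches 37 other genes. Cd3eap, a further subunit of the enzyme, had 21.3 and 17.1 CPM in injured cells, against 70.4 and 94.8 CPM in homeostatic cells (-1.82 ± 0.21, adjusted p = 3.2e-06). Nolc1, a chaperone of snoRNPs that binds the polymerase, fell as well (-1.21 ± 0.18). Tcof1, which encodes the nucleolar phosphoprotein treacle, rose with 77.8 and 79.2 CPM in injured cells, against 41.9 and 64.2 CPM in homeostatic cells (0.82 ± 0.20).

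Among the abundant nucleolar proteins, nucleophosmin stood alone as a riser. Npm1, a histone chaperone that shuttles ribosomal particles out of the nucleolus, had 2415 and 1978 CPM in injured cells, against 872 and 1306 CPM in homeostatic cells (1.26 ± 0.18, adjusted p = 3.2e-05). Its transcript has 5 near-identical copies among annotated genes. Nucleolin (Ncl), which binds nascent rRNA, had 1193 and 1111 CPM in injured cells, against 1406 and 1876 CPM in homeostatic cells, and was not called (-0.26 ± 0.16, adjusted p = 0.14). Gnl3, the GTPase nucleostemin, fell (-1.26 ± 0.16), as did the RNA helicase gene Ddx21 (-0.73 ± 0.15), while Knop1 was not called (0.28 ± 0.18).

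In the 40S pathway 7 of 10 genes fell and none rose. Nop14, a component of the small-subunit processome, had 49.1 and 47.2 CPM in injured cells, against 193 and 226 CPM in homeostatic cells (-1.87 ± 0.16, adjusted p = 2.0e-07), the largest fall of any member. Rrp9, which binds the U3 snoRNA of that processome, had 59.0 and 51.4 CPM in injured cells, against 176 and 256 CPM in homeostatic cells (-1.71 ± 0.19). Heatr1, Wdr43 and Wdr75, the processome subunits that are also tied to rRNA transcription, had fold changes of -1.60 ± 0.27, -1.07 ± 0.17 and -1.17 ± 0.25. The later 40S factors Ltv1 (-1.23 ± 0.17) and Bysl (-0.60 ± 0.24) fell, and Utp20 (0.43 ± 0.26), Rrp12 (-0.08 ± 0.25) and Pno1 (0.43 ± 0.20) were not called.

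The 60S pathway was divided, with 4 of 9 genes lower and 2 higher. Rrs1, which helps to bring the small 5S particle into the large subunit, had 117 and 112 CPM in injured cells, against 291 and 353 CPM in homeostatic cells (-1.24 ± 0.16). Rrp1b (-1.51 ± 0.24), the rRNA methyltransferase gene Nop2 (-0.96 ± 0.20) and Mrto4 (-0.75 ± 0.18) fell. Bop1, of the complex that Bop1, Pes1 and Wdr12 form on the large-subunit precursor, rose with 34.4 and 29.1 CPM in injured cells, against 23.4 and 27.1 CPM in homeostatic cells (0.60 ± 0.22, adjusted p = 0.023), and its libraries lay close together. Its partners Pes1 (-0.44 ± 0.23) and Wdr12 (-0.11 ± 0.19) were not called, nor was Nop16 (-0.32 ± 0.16). Noc2l, whose yeast counterpart acts in the transport of large-subunit precursors, rose with 53.2 and 47.2 CPM in injured cells, against 35.2 and 40.9 CPM in homeostatic cells (0.66 ± 0.19).

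**Figure D2:**
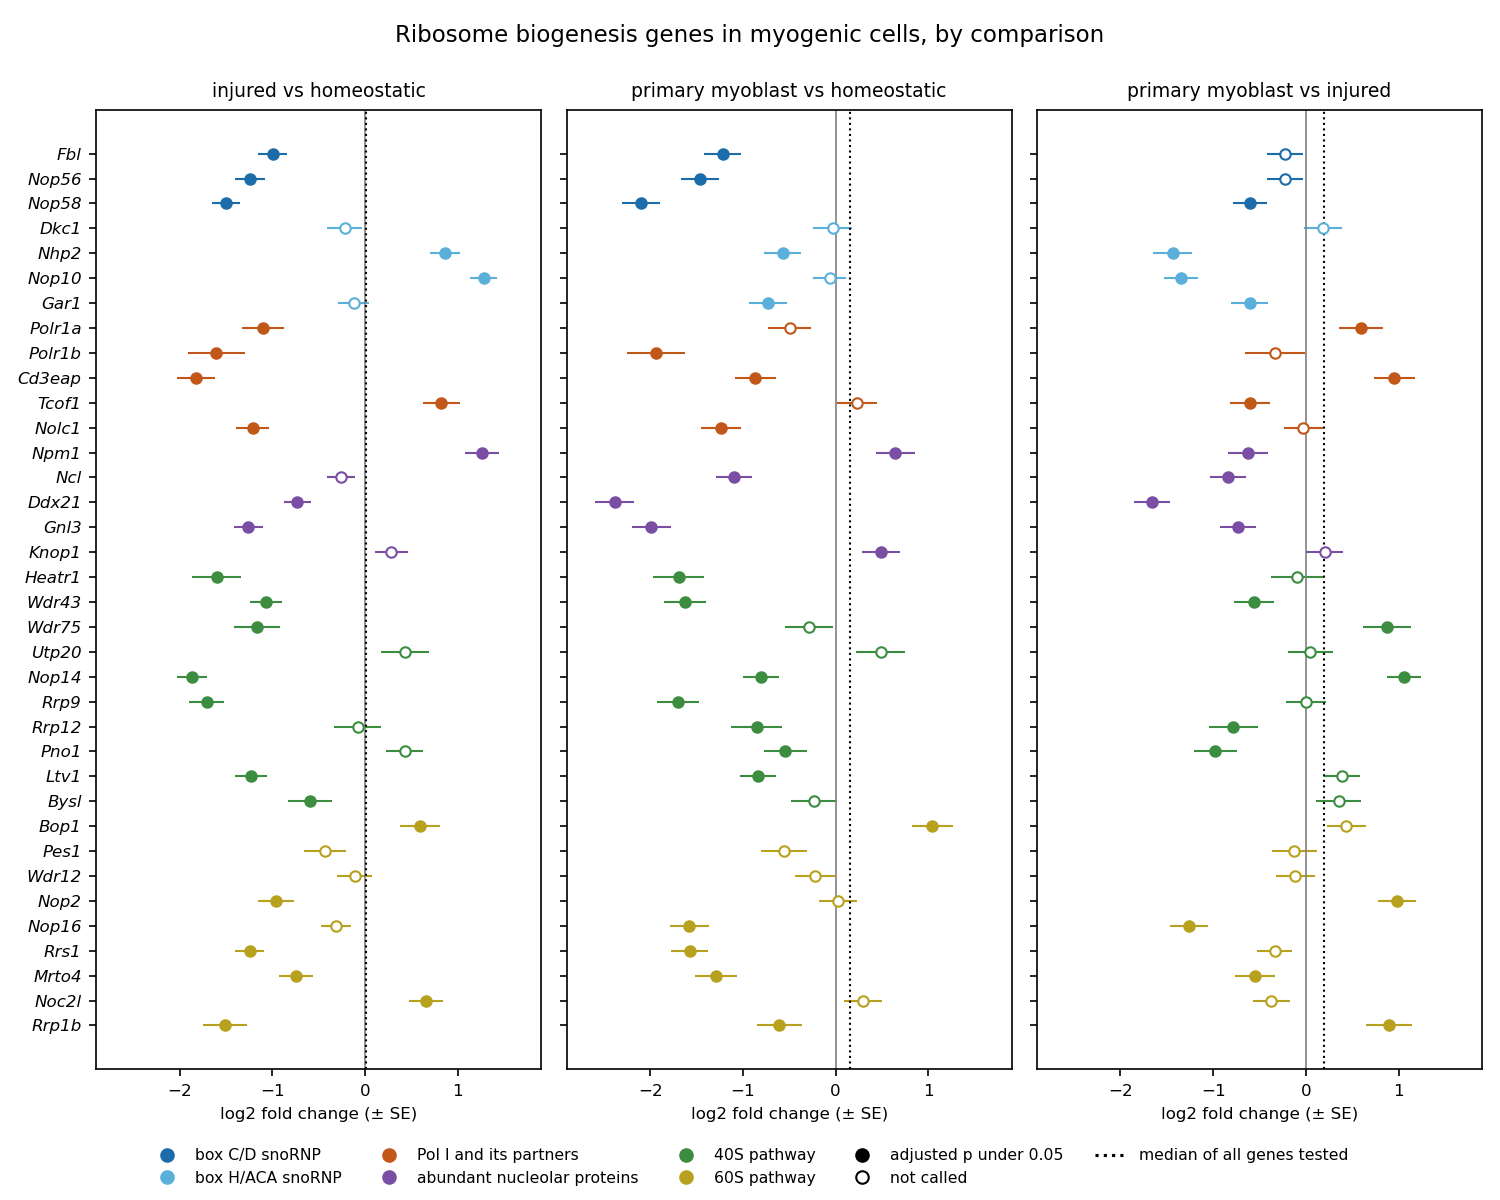
Log2 fold changes (points, with bars of 1 standard error) of the 36 genes in 3 comparisons of myogenic cells, coloured by role, filled where the adjusted p is under 0.05, with the median of all genes as a dotted line. In injured against homeostatic cells 20 genes are filled on the left and 6 on the right, and Npm1, Nop10 and Nhp2 stand out on the right.

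Of the 28 members without a near-identical copy 15 fell and 4 rose. Other measures moved with injury too, and their part in the result was not tested. Hspa1a, a heat-shock gene that cell dissociation induces, was at 1.16 and 0.97 CPM in injured cells, against 3639 and 946 CPM in homeostatic cells, and the immediate-early gene Fos was at 55.7 and 50.4 CPM in injured cells, against 768 and 315 CPM in homeostatic cells. The median share of mitochondrial UMIs was 3.83% and 3.68% in injured cells, against 1.27% and 1.16% in homeostatic cells. With all genes split into 3 equal classes by transcript length, the shortest class had a median log2 fold change of 0.66 and the longest -0.44, and the members had medians of -0.87 in the shortest class (14 genes) and -0.26 in the longest (11 genes). Members lay below all genes in the shortest class and above them in the longest.

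A further 6 lists of ribosome biogenesis genes (156 symbols, 152 in the table, none of them among the 36) showed where the fall extended. In injured against homeostatic cells, 25 of 38 tested genes of the small-subunit processome fell and 3 rose, with a median of -0.62, and Mphosph10, Rcl1 and Pdcd11 were among those that fell. Of 54 genes of 60S assembly 35 fell, Eif6, Rsl1d1 and Gltscr2 among them, and 5 rose, Nip7, Rsl24d1 and Nsa2 among them. Late 40S maturation had 6 of 10 genes lower, including Nob1, Riok3 and Tsr1, and 3 higher. The other 3 lists had medians above 0. Of all 9607 genes tested, 37% were called higher and 36.4% lower, so the counts in these short lists say little by themselves. Of 17 genes of the polymerase I machinery 9 rose and 6 fell (median 0.64), and the 3 most abundant risers, Polr2l, Polr2k and Polr2f, are subunits that polymerase I shares with other polymerases, whereas Polr1c, shared with polymerase III, and the polymerase I factors Twistnb and Taf1d fell. Of 22 genes for nucleases of rRNA processing, their subunits or partners (the nuclease list), 12 rose and 5 fell, with a median of 0.80. Exosc2, Exosc1 and Exosc8 of the exosome were among those that rose, and Xrn2, Exosc3 and Exosc10 among those that fell. Of 9 snoRNP assembly factors 4 rose and 2 fell (median 0.35), with the helicase Ruvbl2 among the risers.

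Promoter sequences were read because many members of different roles fell together and because the motif CACGTG, the E-box to which the growth regulator Myc binds, is known from promoters of such genes. Of the 36 genes, 30 had a window of 250 bases before to 50 bases after a gene start (RefSeq, GRCm38.p6). CACGTG, whose reverse complement is itself, was in a window of 7 of these 30 genes (23.3%: Cd3eap, Ltv1, Nop2, Pes1, Pno1, Utp20 and Wdr43), against 8.09% of all 27025 genes with a window. CCGGAAG, the core that Ets factors recognise, searched on both strands, was in 9 of the 30 (30%), against 9.93% of all genes. All genes with a window include many that were not tested here, whereas every member was. The share among tested genes was not computed, so neither excess is shown to be particular to these genes. Of the genes with CACGTG, Cd3eap, Ltv1, Nop2 and Wdr43 fell in injured cells and Pes1, Pno1 and Utp20 were not called. The windows of Nop2, Cd3eap, Pes1 and Wdr43 are shown, 120 bases each with 90 before the start and 30 from it on, because the whole motif lies inside them. The motif is in capitals, and the windows are written 5′ to 3′ on the strand of the gene.
Nop2 (chr6:125131793-125131912, + strand): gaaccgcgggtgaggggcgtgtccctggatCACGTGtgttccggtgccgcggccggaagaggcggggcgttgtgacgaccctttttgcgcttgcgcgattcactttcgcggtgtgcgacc
Cd3eap (chr7:19359454-19359573, − strand): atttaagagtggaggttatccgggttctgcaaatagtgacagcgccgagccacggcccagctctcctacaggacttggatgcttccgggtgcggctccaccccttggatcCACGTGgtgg
Pes1 (chr11:3963885-3964004, + strand): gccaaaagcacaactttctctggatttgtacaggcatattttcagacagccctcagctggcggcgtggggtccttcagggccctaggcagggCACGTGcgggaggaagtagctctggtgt
Wdr43 (chr17:71616125-71616244, + strand): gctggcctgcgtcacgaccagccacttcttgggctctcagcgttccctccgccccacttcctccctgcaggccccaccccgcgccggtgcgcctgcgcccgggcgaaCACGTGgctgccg
In Nop2 the motif lies before the start, and in the other 3 windows it lies after it. Cd3eap has another CACGTG further before its start, outside the stretch shown. No binding data are in the files, and a match is a run of letters, not a site in use.

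Primary myoblasts were compared with homeostatic cells in a fit of the 5 sorted and cultured libraries, where the myoblast arm has 1 library and takes its spread from the other arms. Of these genes 22 fell and 3 rose, against 32.2% of 11296 genes called lower and 37.8% called higher, and the members' median was -0.76, against 0.15 over all genes. Without scaling 14 members were lower and 6 higher and the medians were -0.34 and 0.58, so the members lay 0.92 below the median of all genes either way. This comparison uses the same homeostatic libraries as the one above. Myofibre markers summed to 2883 CPM in primary myoblasts, 187 and 427 CPM in injured cells and 16.7 and 28.4 CPM in homeostatic cells, and their part in either myoblast comparison was not tested. Ddx21 had 182 CPM in primary myoblasts, against 638 and 780 CPM in homeostatic cells (-2.38 ± 0.21, adjusted p = 2.8e-08). Nop58 had 249 CPM in primary myoblasts, against 716 and 876 CPM in homeostatic cells (-2.10 ± 0.20), and Fbl (-1.22 ± 0.20) and Nop56 (-1.46 ± 0.21) fell beside it. Gnl3 had 196 CPM in primary myoblasts, against 535 and 626 CPM in homeostatic cells (-1.99 ± 0.21). For each of these genes the myoblast library lay below both homeostatic libraries. Polr1b had 11.3 CPM in primary myoblasts, against 22.6 and 42.7 CPM in homeostatic cells (-1.93 ± 0.31), while Polr1a was not called (-0.49 ± 0.23). Ncl fell (-1.10 ± 0.20) and Dkc1 was not called (-0.03 ± 0.21).

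The 3 genes that rose in primary myoblasts were Bop1, Npm1 and Knop1. Bop1 had 69.4 CPM in primary myoblasts, against 23.4 and 27.1 CPM in homeostatic cells (1.04 ± 0.22, adjusted p = 0.00052). Npm1 had 2279 CPM in primary myoblasts, against 872 and 1306 CPM in homeostatic cells (0.65 ± 0.21, adjusted p = 0.011). Knop1 had 162 CPM in primary myoblasts, against 72.3 and 100 CPM in homeostatic cells (0.49 ± 0.20, adjusted p = 0.039). The calls of Npm1 and Knop1 did not hold under every setting tried, and without homeostatic library 1 a single member was called higher. Of the other lists, the small-subunit processome had 20 of 38 genes lower and 1 higher and 60S assembly 35 of 54 lower and 3 higher. In the nuclease list 14 of 22 genes rose and 1 fell. Of all 11296 genes, 32.2% were called lower and 37.8% higher.

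Primary myoblasts were also set against injured cells, in the same fit. Of the members 14 fell and 6 rose, against 24.2% of all genes called lower and 31.6% called higher, with a median of -0.22 against 0.19 over all genes. This split depended on the scaling: without TMM scaling 17 members were called higher and 4 lower, the members' median was 0.45 and that of all genes 0.87. The members lay 0.42 below the median of all genes under both scalings, so directions here are relative to the bulk of genes. Their median was -0.12 without injured library 1, -0.12 with the replicate number as a block and -0.06 over members without a near-identical copy. Nop58, Gar1, Tcof1, Npm1, Wdr43 and Mrto4, called lower with TMM scaling, had positive fold changes without it.

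The larger falls in primary myoblasts against injured cells kept their sign under both scalings. Ddx21 had 182 CPM in primary myoblasts, against 355 and 364 CPM in injured cells (-1.66 ± 0.20). Nhp2 had 324 CPM in primary myoblasts, against 541 and 556 CPM in injured cells (-1.44 ± 0.21), and Nop10 had 378 CPM in primary myoblasts, against 617 and 586 CPM in injured cells (-1.35 ± 0.19). These 2 box H/ACA genes were the ones higher after injury, in a comparison that uses the same 2 injured libraries, so the 2 results are not independent. Nop16 had 69.6 CPM in primary myoblasts, against 101 and 109 CPM in injured cells (-1.26 ± 0.20). On the other side, Nop14 had 161 CPM in primary myoblasts, against 49.1 and 47.2 CPM in injured cells (1.06 ± 0.19). Nop2 had 76.1 CPM in primary myoblasts, against 23.5 and 24.9 CPM in injured cells (0.98 ± 0.20). Cd3eap had 60.5 CPM in primary myoblasts, against 21.3 and 17.1 CPM in injured cells (0.95 ± 0.22), and Rrp1b had 63.9 CPM in primary myoblasts, against 23.6 and 18.4 CPM in injured cells (0.90 ± 0.25). These 4 genes stood above both injured libraries, and all 4 were called lower after injury in those same libraries. Polr1a and Wdr75 were the other 2 called higher, at 0.60 ± 0.24 and 0.88 ± 0.26.

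**Figure D3:**
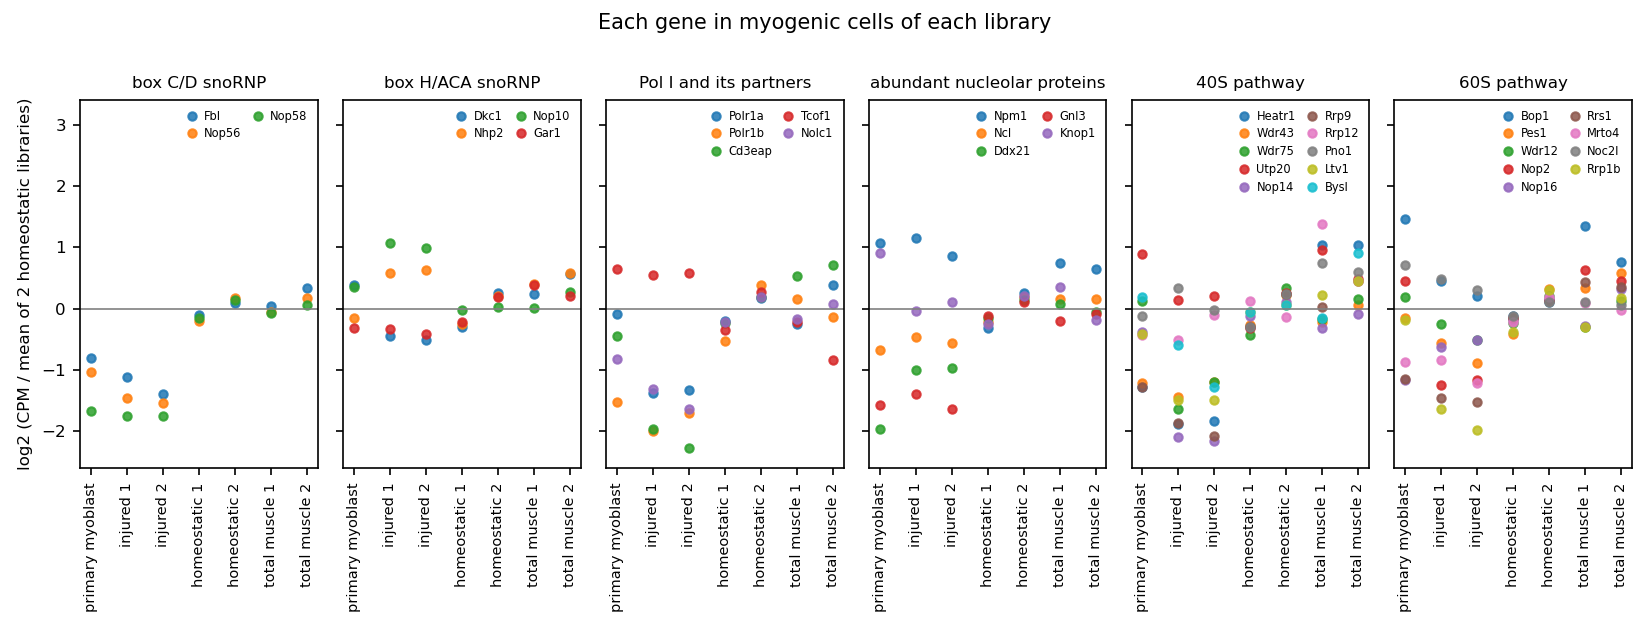
Level of each of the 36 genes in the myogenic cells of each of the 7 libraries, as log2 of its CPM over its mean in the 2 homeostatic libraries (grey line at 0), with a panel for each role. The 3 box C/D genes lie below 0 in primary myoblasts and in both injured libraries, and Nop10, Nhp2, Tcof1 and Npm1 lie above 0 in both injured libraries.

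Homeostatic MuSCs were compared with the myogenic cells found in unsorted total muscle. Npm1 was the only member called, lower in homeostatic MuSCs, against 3.44% of 7303 genes called lower and 3.38% called higher. Npm1 had 872 and 1306 CPM in homeostatic cells, against 1822 and 1716 CPM in myogenic cells of total muscle (-0.77 ± 0.16, adjusted p = 0.0046). Its call was lost when homeostatic library 1 or either total muscle library was left out. The members' median was -0.23, against 0.04 over all genes, with 33 members below 0 and 9 lower at an unadjusted p under 0.05, a threshold at which 8.8% of all genes were lower. The members' median was -0.06 without homeostatic library 1, -0.40 without homeostatic library 2, -0.35 without total muscle library 1 and -0.15 without total muscle library 2, so its size rests on single libraries. The total muscle sums rest on 59 and 83 cells, and Tcof1, for example, had 41.9 and 64.2 CPM in homeostatic cells, against 45.8 and 29.8 CPM in total muscle, which overlap. Myofibre markers summed to 16.7 and 28.4 CPM in homeostatic cells, against 3951 and 14676 CPM in the myogenic cells of total muscle, and the part of this in the result was not tested.

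Homeostatic cells were then divided by Myod1, the transcription factor that marks commitment to the muscle lineage, after thinning each cell to 1000 UMIs. Cells with 2 or more Myod1 UMIs (312 and 263 cells) were set against cells with none (444 and 350 cells), with the library as a block. No member was called by edgeR's quasi-likelihood test, and 6 were higher and none lower at an unadjusted p under 0.05. Of all 6502 genes, 3.63% were higher and 4.26% lower at that unadjusted threshold, and 0.0923% were called higher and 0.354% lower. DESeq2 called no member either. The summed level of the 36 genes was 8619 and 11381 CPM in Myod1-high cells, against 7890 and 10367 CPM in Myod1-low cells, higher in both libraries. Cells with 0, 1, 2 and 3 or more Myod1 UMIs had sums of 7890, 8402, 8065 and 8827 CPM in homeostatic library 1 and 10367, 10240, 11660 and 11287 CPM in library 2. The order of the classes differed between the libraries, and every class of library 2 lay above every class of library 1. The members' median log2 difference was 0.13, against -0.00 over all genes, and 32 of 36 fold changes were above 0.

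Of the 6 genes with a low unadjusted p, 4 belong to the 60S pathway (Rrs1, Bop1, Nop16 and Mrto4), 1 to polymerase I (Cd3eap) and 1 to the abundant nucleolar proteins (Ncl). Rrs1 had 333 and 407 CPM in Myod1-high cells, against 275 and 330 CPM in Myod1-low cells (0.28 ± 0.09, adjusted p = 0.39). Cd3eap had 91.3 and 115 CPM in Myod1-high cells, against 61.2 and 82.1 CPM in Myod1-low cells (0.52 ± 0.15, adjusted p = 0.32). Within each library the Myod1-high sum was the higher one for both genes. The others were Ncl (0.13 ± 0.06), Bop1 (0.72 ± 0.29), Nop16 (0.33 ± 0.12) and Mrto4 (0.27 ± 0.11). Fbl (0.16 ± 0.08), Nop56 (0.06 ± 0.08), Nop58 (0.00 ± 0.07), Dkc1 (0.03 ± 0.14) and Npm1 (0.04 ± 0.07) lay near 0, and Tcof1 had the lowest value (-0.36 ± 0.20). Where all cells of the homeostatic libraries that passed the cell filters were divided in the same way without the myogenic gate, a setting added after seeing the data, 7 members were called higher. The gate kept 63.0% and 56.9% of those cells, so this setting adds cells that were not gated as myogenic. The members' median was then 0.20, against 0.00 over all genes, and the share of all genes called is not given for it. In the gated cells Hspa1a was at 935 and 323 CPM in Myod1-high cells, against 5494 and 1356 CPM in Myod1-low cells, and Fos at 375 and 200 CPM, against 1073 and 416 CPM. The part of these genes in the difference was not tested.

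Injured cells were divided in the same way by Myog, the transcription factor of terminal differentiation. Myog-positive cells (74 and 169) had 6 members lower than Myog-negative cells (689 and 660) and none higher, against 4.04% of 7331 genes called lower and 5.66% called higher. The summed level of the 36 genes was 6560 and 5880 CPM in Myog-positive cells, against 7659 and 7074 CPM in Myog-negative cells. The members' median was -0.20, against -0.00 over all genes, and 29 of 36 were below 0.

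The 6 genes that fell included 2 of the box H/ACA snoRNP. Dkc1 had 47.3 and 42.6 CPM in Myog-positive cells, against 80.0 and 80.9 CPM in Myog-negative cells (-0.82 ± 0.21, adjusted p = 0.0014). Nhp2 had 424 and 440 CPM in Myog-positive cells, against 553 and 580 CPM in Myog-negative cells (-0.38 ± 0.07, adjusted p = 4.7e-06). Neither gene's classes overlapped between libraries. Rrs1 had 92.7 and 67.4 CPM in Myog-positive cells, against 119 and 122 CPM in Myog-negative cells (-0.57 ± 0.16, adjusted p = 0.0077). Nop56 had 122 and 112 CPM in Myog-positive cells, against 171 and 168 CPM in Myog-negative cells (-0.52 ± 0.14, adjusted p = 0.0027). Ncl had 988 and 851 CPM in Myog-positive cells, against 1213 and 1168 CPM in Myog-negative cells (-0.36 ± 0.05, adjusted p = 9.8e-11). Npm1 had 2099 and 1733 CPM in Myog-positive cells, against 2447 and 2029 CPM in Myog-negative cells (-0.21 ± 0.04, adjusted p = 2.9e-06), and here the 2 classes overlapped across libraries though not within them. Fbl (0.02 ± 0.12), Nop58 (-0.15 ± 0.11), Polr1a (-0.97 ± 0.47) and Polr1b (0.30 ± 0.50) were not called. Between 0 and 2 members were called with DESeq2, without the library block, with cells thinned to 1000 UMIs before summing, with at least 3 myogenic markers or only in cells with 9 or more G or C in the barcode. With thinned cells the fold change of Rrs1 was 0.00271, so its direction was lost. Myog itself is among the 8 markers of the gate. Myofibre markers summed to 1204 and 1650 CPM in Myog-positive cells, against 84.7 and 154 CPM in Myog-negative cells, and their part in the result was not tested.

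Within the single primary myoblast library the same division gave a summed level of 5347 CPM in 593 Myog-positive cells, against 7744 CPM in 3479 Myog-negative cells. With 1 library there is no test, and the 95% intervals below (exact Poisson) cover counting error only. In Myog-positive cells 33 of the 36 genes were lower, the exceptions being Bop1, Bysl and Rrp12, against 61.3% of 11296 genes. Myofibre markers summed to 17276 CPM in Myog-positive cells, against 510 CPM in Myog-negative cells, and the 61 markers of other types to 2858 CPM, against 972 CPM, and their part in the difference was not tested. Dkc1 was at 88.2 CPM (83.6 to 93.1) in Myog-positive cells, against 145 CPM (143 to 148) in Myog-negative cells. Npm1 was at 1439 CPM (1420 to 1459) in Myog-positive cells, against 2417 CPM (2407 to 2427) in Myog-negative cells, and Ncl at 675 CPM (662 to 688), against 1084 CPM (1077 to 1090).

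Cycling cells were defined among Myog-negative injured cells by a UMI of any of 8 cell cycle genes (Top2a, Mki67, Cdk1, Ccna2, Ccnb1, Birc5, Ube2c, Tpx2) after thinning. No member differed between 410 and 365 cycling cells and 279 and 295 non-cycling cells by edgeR's quasi-likelihood test, against 0.609% of 7554 genes called higher and 0.966% called lower. At an unadjusted p under 0.05 there were 4 members higher (Polr1b, Npm1, Noc2l and Rrp1b) and 3 lower (Nop10, Cd3eap and Nop16), against 3.94% of all genes higher and 4.99% lower, and DESeq2 called none. The summed level was 7719 and 7211 CPM in cycling cells, against 7560 and 6874 CPM in non-cycling cells, higher in cycling cells within both libraries. Ncl had 1245 and 1194 CPM in cycling cells, against 1160 and 1130 CPM in non-cycling cells (0.06 ± 0.04, adjusted p = 0.68). In primary myoblasts the sum was 8409 CPM in 1236 cycling cells, against 7359 CPM in 2243 non-cycling cells, and 32 of 36 members were higher in cycling cells, against 48.2% of 11296 genes, with no test in a single library.

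**Figure D4:**
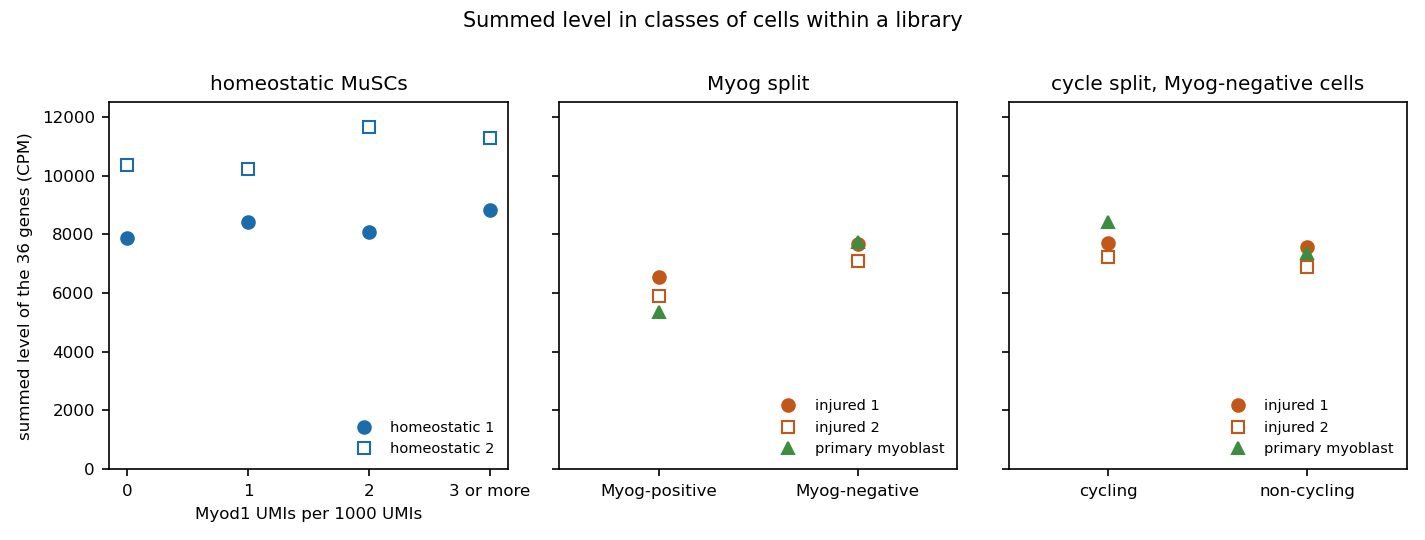
Summed level (CPM) of the 36 genes in classes of cells within a library, by Myod1 UMIs in homeostatic cells (left), by Myog (middle) and by cell cycle genes in Myog-negative cells (right), with a point for each library. Myog-positive cells lie below Myog-negative cells in all 3 libraries shown, at 6560, 5880 and 5347 CPM against 7659, 7074 and 7744 CPM.

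Total muscle allowed the myogenic cells to be set against 9 other cell types of the same libraries, each gated by its own markers and summed per library. Nearly all members, 35 of 36, were higher in myogenic cells than in the mean of the other types and none was lower, against 18.4% of 8998 genes called higher and 5.93% called lower. The members' median log2 difference was 1.80, against 0.07 over all genes, and Tcof1 was the member not called (1.01 ± 0.68). The summed level was 10705 and 11221 CPM in myogenic cells, and between 1102 and 6455 CPM in the other types. In descending order of their means the others were tenocytes (6208 and 6455 CPM), fibro-adipogenic cells (5399 and 5334 CPM), B cells (4771 and 5276 CPM), T or NK cells (4341 and 4154 CPM), mural cells (3380 and 5095 CPM), glial cells (4391 and 3642 CPM), endothelial cells (3279 and 3504 CPM), macrophages or monocytes (2430 and 2325 CPM) and myofibre nuclei or fragments (1240 and 1102 CPM). B cells overlapped neither T or NK cells nor fibro-adipogenic cells, while mural cells overlapped B, T or NK, glial and endothelial cells. With each cell thinned to 1000 UMIs, myogenic cells held 10.2 and 11.2 UMIs of the 36 genes per cell on average, against 6.35 and 6.59 in tenocytes.

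Every role was higher in myogenic cells. Nucleolin had 1827 and 1825 CPM in myogenic cells, against at most 998 CPM in any other type and library (1.71 ± 0.15, adjusted p = 5.2e-11). Rrs1 had 435 and 413 CPM in myogenic cells, against at most 253 CPM elsewhere (2.36 ± 0.17, adjusted p = 3.0e-13), and Rrp9 had 220 and 298 CPM in myogenic cells, against at most 127 CPM elsewhere (fitted value 3.14 ± 0.31). In 30 of the 36 genes both myogenic libraries stood above every other type and library, against 5.25% of all genes tested. Some of these margins were small and rest on few UMIs. Noc2l had 39.674 CPM in the lower myogenic library, against 39.653 CPM in the highest other type, on 9 and 12 myogenic UMIs. Utp20 had 23.1 CPM, against 22.7 CPM, on 7 and 7 myogenic UMIs. The fitted value of Rrp12 was 4.06 ± 0.76, on 11 and 8 UMIs in myogenic cells. Rrp12 had no UMI in the mural, glial and myofibre cells of either library, and Rrp9 none in myofibres of either library or in mural cells of library 1, so the size of both fitted values depends on the prior count of the fit. Of the called members Nop10 was the least raised (0.59 ± 0.17), with 298 and 357 CPM in myogenic cells, against 606 and 619 CPM in B cells.

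Taken type by type, a comparison added after seeing the data, 35 genes were higher in myogenic cells than in endothelial cells, 31 than in T or NK cells and in macrophages or monocytes, 30 than in myofibres, 28 than in fibro-adipogenic and in B cells, 26 than in mural cells, 25 than in glial cells and 21 than in tenocytes. The share of all genes called higher in myogenic cells was 16.4% against endothelial cells, 18.7% against T or NK cells, 14.6% against macrophages or monocytes, 22.3% against myofibres, 12.8% against fibro-adipogenic cells, 21% against B cells, 9.38% against mural cells, 8.5% against glial cells and 10% against tenocytes. Nop10 against B cells was the single member called lower, where 17.7% of all genes were, and the share called lower against the other 8 types ran from 8.79% to 23.2%. Of the 36 genes 14 were called higher than in each of the 9 types, against 1.88% of all genes tested. They were Fbl, Dkc1, Nhp2, Gar1, Cd3eap, Ncl, Ddx21, Wdr43, Rrp9, Rrp12, Ltv1, Nop16, Rrs1 and Mrto4. Each of the 6 roles has at least 1 gene in this set.

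Among the other types, tenocytes had 23 members higher than the mean of the rest (27% of all genes were) and fibro-adipogenic cells 22 (33.6%). Neither type had a member lower, against 4.3% of all genes in tenocytes and 5.58% in fibro-adipogenic cells. B cells had 13 members higher and 2 lower (26.9% and 12.6% of all genes), with Nop10 and Tcof1 among those higher and Nop58 among those lower, as in T or NK cells. Endothelial cells had 2 higher and 10 lower (32.4% and 9.44% of all genes), T or NK cells 4 higher and 7 lower (23.5% and 10.5%), macrophages or monocytes 8 lower (4.4%), glial cells 2 lower (2.99%) and myofibres 16 lower (22%), with none higher in the last 3 types, against 18.8%, 9.91% and 12.9% of all genes. No member was called in mural cells, where 15.9% of all genes were called higher and 2.73% lower, and 4 members were higher and 1 lower at an unadjusted p under 0.05, against 22.5% and 5.91% of all genes.

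**Figure D5:**
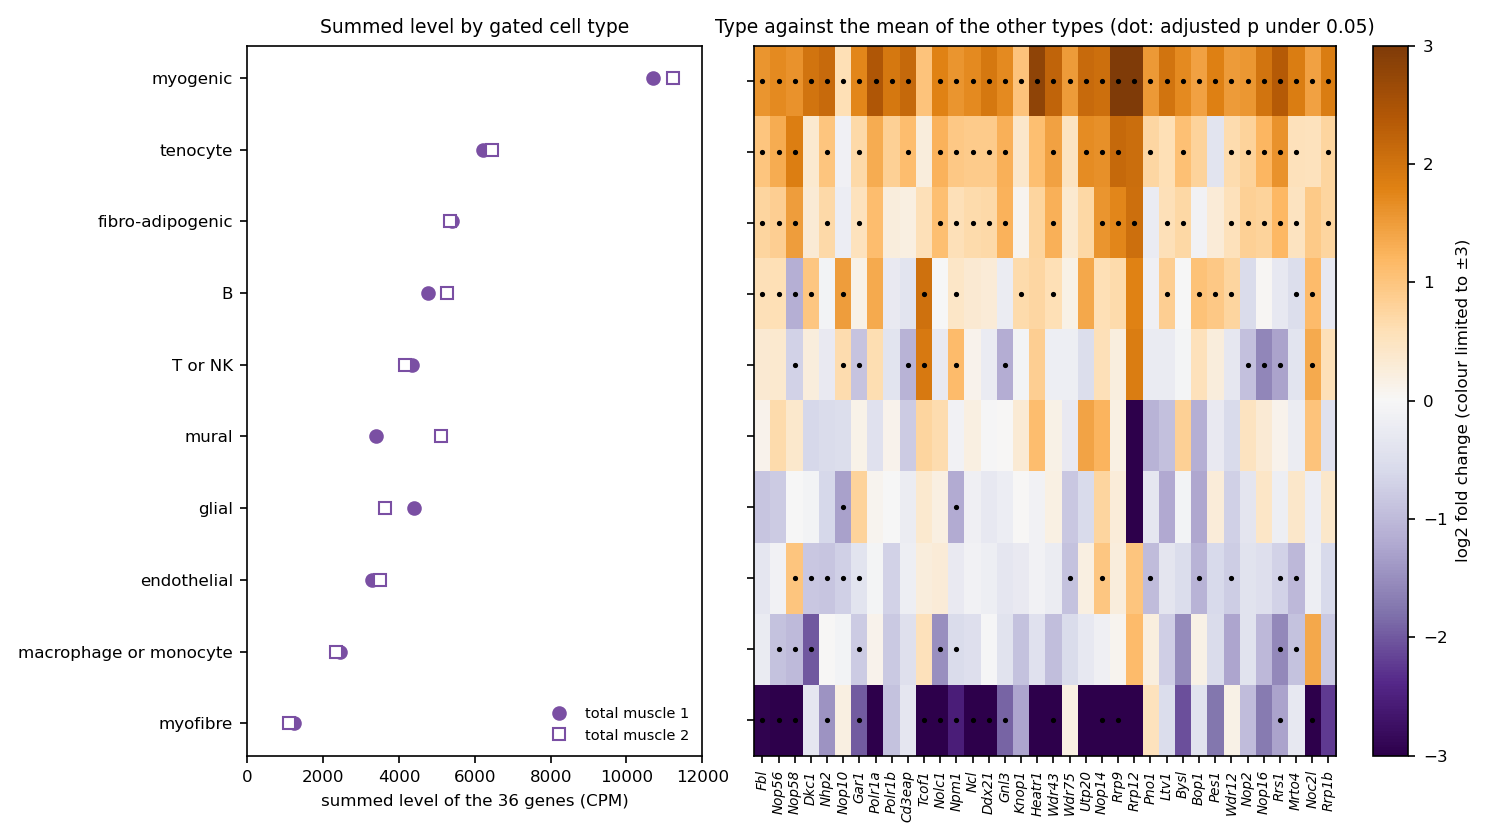
Left, summed level (CPM) of the 36 genes in each gated cell type of the 2 total muscle libraries. Right, log2 fold change of each gene in a type against the mean of the other types, in the same order of types from top to bottom, with a dot where the adjusted p is under 0.05. The myogenic row has 35 dots and lies at 10705 and 11221 CPM on the left, above all other types.

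Of the 6 further lists, the nuclease list apart, each had members higher in myogenic cells and none lower. Against the mean of the other types, 42 of 50 tested genes of 60S assembly were higher, 25 of 37 of the small-subunit processome, 8 of 15 of the polymerase I machinery, 4 of 10 of late 40S maturation and 4 of 8 of snoRNP assembly. Of 19 genes of the nuclease list 3 were higher and 1, Rpp21, was lower, where 18.4% of all 8998 genes were called higher and 5.93% lower. Hspa1a was at 4006 and 3478 CPM in the myogenic cells of total muscle, and myofibre markers at 3951 and 14676 CPM, far apart between the 2 libraries. In the other types, myofibres apart, these markers ran from 239 to 2158 CPM in library 1 and from 428 to 3637 CPM in library 2. The part of Hspa1a and of these markers in the result was not tested. Without myofibres among the other types 34 members were higher, and the share of all genes called is not given for that setting. The members' median was then 1.55, against -0.11 over all genes.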

How the data were processed

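Droplet libraries (10x 3′ kit) of mouse muscle cells were deposited by the authors as matrices of unnormalised UMI counts. Per the submitters' processing notes, Cell Ranger 2.2.0, bcl2fastq 2.17.1, Seurat 2.3.4 and the mm10 build were used. The deposited counts are molecules near the 3′ end, so levels of different genes were not compared. Cells with at least 200 genes and at most 10% mitochondrial UMIs were kept (15267 of 15474 barcodes) and gated by markers, of which 82 of 85 were in the gene table. Free RNA and doublets can place markers of other types in a cell, and no doublet caller was run. Raw counts were summed per library and class and fitted across all genes with edgeR 4.0.16 (R 4.3.3; TMM, filterByExpr, quasi-likelihood test, Benjamini-Hochberg adjustment). Splits within a library and cell types had the library as a block. Standard errors are the fold change over the root of F. DESeq2 1.42.0 was an alternative. The scripts were tested on simulated data. Near-identical copies are matches of 90 or more bases at 95% identity in the last 300 bases of a transcript (blastn 2.17.0, GENCODE M21), found for 8 members (Npm1, Fbl, Nop56, Nop58, Polr1b, Wdr12, Mrto4, Noc2l). Such a match can be a shared stretch and need not be a copy of the whole gene. Values per library were given for the 4 largest rises and falls among called members and for Npm1, Ncl and core subunits. The members and all lists were chosen with earlier results of these data known.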

Additional observations from a re-analysis of the deposited data

How the results depend on the processing

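In injured against homeostatic cells, 21 of the 26 calls held under every other setting chosen at the start, Bop1, Bysl, Noc2l, Polr1a and Wdr75 being lost in at least 1; leaving out each library gave 5 to 9 members higher and 19 to 24 lower, with medians from -0.92 to -0.59. For primary myoblasts against homeostatic cells 15 of 25 calls held. The count higher was 1 with DESeq2, 5 with no filter, 5 with all 7 libraries in 1 fit, 6 without scaling (14 lower), and 1 to 5 (18 to 24 lower) when each library was left out. For primary myoblasts against injured cells 7 of 20 calls held. Without scaling the counts were 17 higher and 4 lower and the median was 0.45, with reversed values for Nop58 (0.0754), Gar1 (0.0713), Tcof1 (0.0802), Npm1 (0.0546), Wdr43 (0.12) and Mrto4 (0.13). DESeq2 gave 3 higher, no filter 7 lower and a gate of 3 markers 8 lower. For homeostatic cells against total muscle the count lower was 0 without members with a copy, 0 in GC-rich barcodes, 2 without a gate on the sorted cells and 0 to 3 when each library was left out. In the Myog division the count lower was 1 with DESeq2, 2 with a gate of 3 markers, 2 in GC-rich barcodes, 1 with thinned cells and 0 without the library block, and Rrs1 was reversed with thinned cells (0.00271). In the cycling division the median was 0.0704, of the opposite sign, with cells thinned to 2000 UMIs. Without the gate, added after seeing the data, 7 members were called higher in Myod1-high and 2 in cycling cells, with no share of all genes beside these counts. Myogenic cells against other types had 22 of 28 members still tested higher in GC-rich barcodes (median 1.67) and 19 of 21 with thinned cells (median 1.904); over all types thinning gave 63 higher and 20 lower and GC-rich barcodes 20 lower. GC-rich barcodes and thinning hold fewer cells or UMIs by construction, and for the other alternatives the cause was not tested.

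With the replicate number as a block, 7 members were higher and 20 lower in injured cells, 3 higher and 19 lower in primary myoblasts against homeostatic cells, 6 higher and 12 lower against injured cells, and 2 lower in homeostatic cells against total muscle. Libraries of the same number did not deviate together (r = -0.0789 over 6688 genes for injured and homeostatic cells, 0.0296 over 6370 for homeostatic cells and total muscle), so the block rests on a shared number alone. Without barcodes shared within a group, 20 members were lower and 6 higher in injured cells. Leaving out a library of the splits and cell types leaves 1 library and no residual degrees of freedom, and was not run as a test.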
